A study of Mus musculus with 8 samples.

Results

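The long sequences without a genomic match are 1262 of the 11568 distinct sequences in a deposited table of small RNA counts. Each is at least 30 nucleotides long, has no annotation hit and has 0 genomic matches in that table. Sequences 1 substitution from a sequence with a miRNA or tRNA hit, or extending one by 1 to 3 nucleotides at the 3′ end, were left out. These were 456 of the 1718 sequences with no hit, no genomic match and 30 or more nucleotides: 454 for a substitution, 35 for an extension and 33 of them for both. No count entered the choice. At the length limit, the table holds 65 such unmatched sequences of 29 nucleotides and 67 of 30 nucleotides, of which 50 were kept.

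The libraries come from MIN6B1 cells (MIN6 in the sample titles), a mouse insulinoma line used as a model of the pancreatic beta cell, transfected by lipofection and kept for 24 to 72 h. Cells received either a control plasmid or a plasmid for HENMT1ΔC-T6B, a methyltransferase construct that carries the T6B peptide. Total RNA of each was sequenced either without oxidation or after oxidation by NaIO4 (sodium periodate), which gives 4 groups of 2 libraries, made from 5 ng of RNA with the QIAseq miRNA kit. The groups are control non-oxidized, control oxidized, methyltransferase non-oxidized and methyltransferase oxidized. The labels do not say whether the 2 libraries of a group come from separate cultures, so p-values measure only the spread between these libraries, which may be technical.

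Periodate oxidizes the vicinal hydroxyls of an unprotected 3′ ribose, and an RNA so oxidized is a poor substrate for 3′ adapter ligation. A 3′ end that carries a 2′-O-methyl group, as plant miRNAs and piRNAs do after HENMT1-type methylation, is not oxidized. Reads can lack a genomic match because the RNA was changed after transcription, as with the CCA that is added to every tRNA and is not encoded in mitochondrial or nuclear mammalian tRNA genes. They can also lack one because their genes are missing from an assembly, as with much of the ribosomal DNA, or because the read carries a base that differs from the genome.

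The members were sorted by shared stretches of 16 bases into 97 families, 43 of them of 1 sequence, and the families into 7 kinds. Identifiers such as seq2255 number the sequences in the order of the table. The most counted sequence of each leading kind is printed here, 5′ to 3′, since these sequences carry most of the counts described in what follows. In seq2255 and seq2729 the capital marks the position at which most substituted members differ. In seq7536 the capitals mark a run found in the transcript Gm26917, and in seq899 and seq6840 they mark the CCA end.
seq2255: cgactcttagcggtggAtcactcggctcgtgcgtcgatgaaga
seq2729: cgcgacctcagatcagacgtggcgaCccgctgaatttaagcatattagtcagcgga
seq7536: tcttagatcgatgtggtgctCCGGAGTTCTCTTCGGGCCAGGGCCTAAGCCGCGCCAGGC
seq899: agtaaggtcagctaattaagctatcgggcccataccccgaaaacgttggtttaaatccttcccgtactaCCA
seq6840: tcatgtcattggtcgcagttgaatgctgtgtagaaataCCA

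The largest kind, 551 members around seq2255, is called the 5.8S family here because seq2255 starts at the well-known 5′ end of 5.8S ribosomal RNA. The 172 members around seq2729, which starts at the 5′ end of 28S ribosomal RNA, are called the 28S family. A complete ribosomal RNA reference was not used here, so both names rest on the starts of the leading sequences. The commonest first 10 bases are shared by 187 of the 551 members, with 29 different starts, and by 161 of the 172. In seq7536, which leads 46 members, bases 21 to 60 match the first 40 bases of Gm26917, annotated as a lincRNA (GRCm38, chromosome 17, 39843013 to 39843052, plus strand). A further 123 members lie within 3 differences of a mitochondrial tRNA, 107 lie within 4 differences of a sequence with a tRNA hit, 143 lie within 3 differences of another annotated transcript, and 120 remained unplaced.

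Over the 8 libraries, the 5.8S family held 44.1% of the members' counts, the 28S family 18.9% and the Gm26917 family 11.1%. Members measured 30 to 80 nucleotides, with a median of 43. The median was 42 in the 5.8S family, 59 in the 28S family, 47 among mitochondrial tRNA members, 40 among the members near a tRNA hit and 68 among those near other transcripts. Many members are forms of each other: 375 of the 551 in the 5.8S family were 1 substitution from another member of it and 500 lay inside a longer one, so they are not independent measurements.

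Every listed sequence has 2 or more reads in each oxidized methyltransferase library and 10 or more in both together. The sources used here do not describe how the listing was made, so a selection on these libraries is inferred from that minimum. No member is therefore at 0 in those 2 libraries, whereas 169 and 187 members were at 0 in the 2 oxidized control libraries and 239 and 283 in the non-oxidized control libraries. This selection bears on every difference from oxidized methyltransferase RNA. Summed columns cover what is listed and are not depths of whole libraries. They ran from 2446036 to 6641250 in 6 libraries and were 438363 and 295094 in the oxidized control libraries. At that depth a count of 0 allows a share of up to 0.000684% and 0.00102% of listed counts (3 counts of the total), for counting error only.

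Members made up far more of the listed counts in oxidized control RNA than in any other group. Their share was 0.828% and 0.785% in the non-oxidized control libraries and 22.1% and 17.3% in the oxidized control libraries. With the methyltransferase plasmid it was 1.52% and 1.89% without oxidation and 2.15% and 2.46% after it. The groups compared did not overlap in any of the 4 comparisons, and the exact two-sided permutation test gave p = 0.33 for each, the smallest p that 2 libraries against 2 allow (0.4 adjusted over the 12 share comparisons). In means, oxidized control RNA held 19.7% ± 3.39 (SD, n = 2) against 0.807% ± 0.0303 in non-oxidized control RNA, and oxidized methyltransferase RNA 2.30% ± 0.214 against 1.7% ± 0.260.

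The make-up of the members' counts differed with oxidation. The 5.8S family took 31.5% ± 6.48 (SD, n = 2) of them in non-oxidized control RNA and 54.1% ± 11.5 in oxidized control RNA, and 29.7% ± 0.970 and 55.6% ± 17.6 with the methyltransferase plasmid. The Gm26917 family, by contrast, took 20.3% ± 7.39 and 20.4% ± 7.11 without oxidation and 2.10% ± 0.460 and 2.12% ± 0.930 after it. The 28S family took 7.99% and 37% in the 2 oxidized methyltransferase libraries. Mitochondrial tRNA members stayed between 6.92% and 13.6% in the 8 libraries, and members near a tRNA hit between 3.58% and 16.4%.

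**Figure D1:**
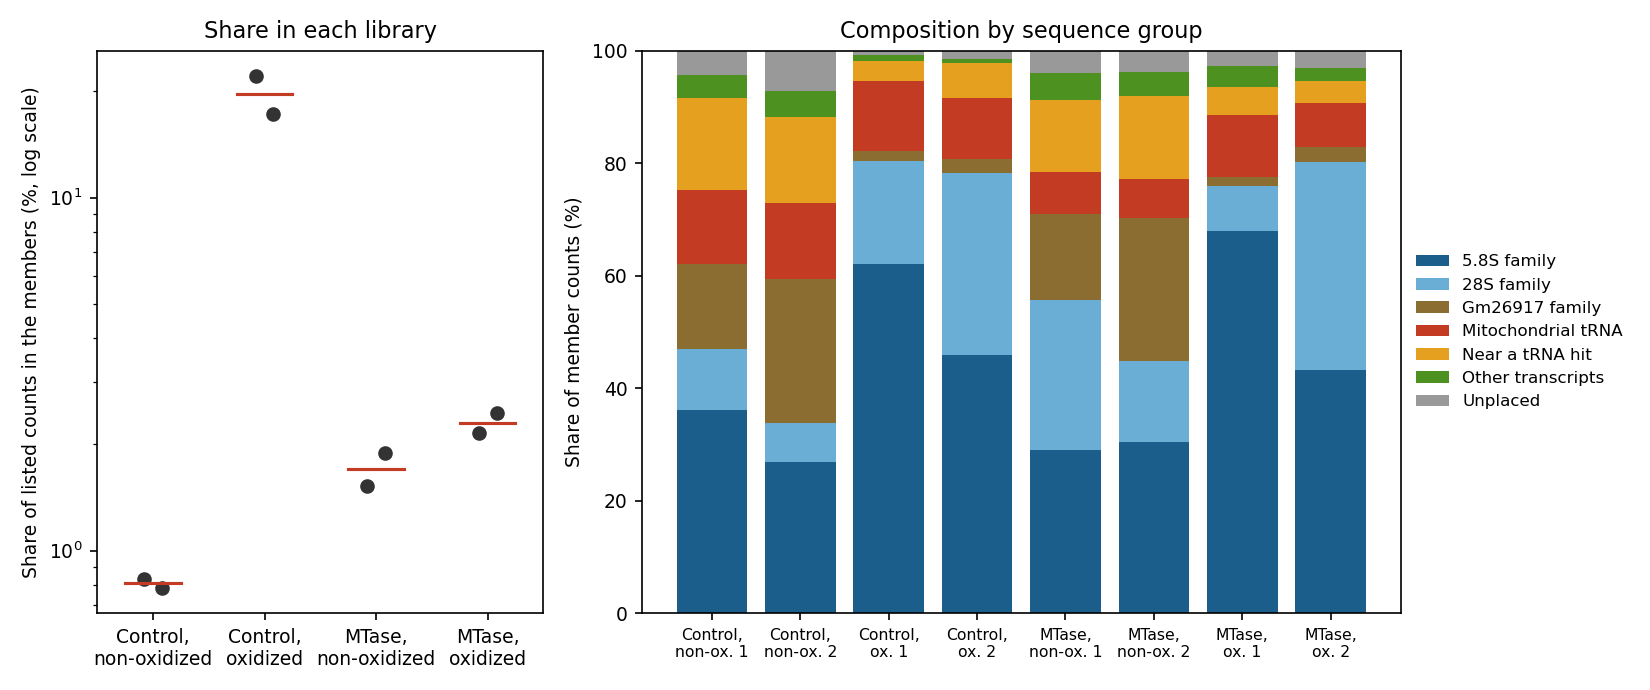
Left, share of listed counts in the members in percent (log scale), with a point for each library and a line for the mean of each group of 2. Right, share of the members' counts in each kind, as bars from 0 to 100% for each of the 8 libraries (MTase, methyltransferase plasmid; ox., oxidized): the 5.8S family is the largest kind in each oxidized library, and the Gm26917 family is above 15% in each non-oxidized library and below 3% in each oxidized one.

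Differences between groups were tested with edgeR's quasi-likelihood test over all sequences of the table that passed its filter, with Benjamini-Hochberg adjustment, and a call is an adjusted p under 0.05. Of the 1262 members, 1169 were tested and 93 were too low. Counts were scaled by TMM (trimmed mean of M-values). Scaling matters here because members take so different a share of each group: scaling by listed totals alone would shift the median sequence by 4.30 on the log2 scale for oxidation with the control plasmid, by 0.86 with the methyltransferase plasmid, by -2.99 for the plasmids in oxidized RNA and by -3.44 for the interaction. Upper-quartile scaling shifts the same 4 medians by 1.71, 0.77, -0.87 and -0.95. Changes are given relative to TMM, and a direction that flips under these scalings is named with its values.

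After oxidation of control RNA more members were called higher than lower, while in the whole table more sequences were called lower. Among all 9851 sequences tested, 18.4% were called higher and 46.4% lower after oxidation, with a median log2 change of -1.14. Among members 535 were called higher and 141 lower of 1169, with a median of 1.89. The sequences with a tRNA hit and 30 or more nucleotides, the nearest listed class by length, gave 39 higher and 114 lower of 370, with a median of -0.13. The number of members called higher fell to 329 without control non-oxidized replicate 2, and likewise to 329 without control oxidized replicate 1. It was 1014 under listed totals, 869 under the upper quartile and 342 by DESeq2's Wald test. With an equal minimum count asked of the groups compared, which tests fewer sequences, 68 members were higher and 54 lower.

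The direction differed between kinds. In the 28S family 115 of 172 tested members rose and 0 fell (median 3.18), and in the 5.8S family 303 rose and 11 fell of 537 (median 2.61). Of mitochondrial tRNA members 48 rose and 11 fell of 122 (median 1.54), and near a tRNA hit 32 rose and 23 fell of 105 (median 0.99). In the Gm26917 family 26 fell and 10 rose of 46, with a median of -1.85 that becomes 2.55 under scaling by listed totals and -0.07 under upper-quartile scaling. Near other transcripts 46 fell and 22 rose of 104, with a median of -2.13 that becomes 1.56 under listed totals and -0.53 under the upper quartile. The unplaced members gave 24 lower and 5 higher of 83 (median -0.37, but 3.5 and 0.86 under those scalings).

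With the methyltransferase plasmid, fewer members were called after oxidation. Among all sequences tested 1.77% were called higher and 11.2% lower, with a median log2 change of 0.09, and among members 47 were higher and 72 lower, with a median of 0.73. The 5.8S family gave 25 higher and 8 lower (median 1.25), the mitochondrial tRNA members 14 and 4 (median 0.20), and the Gm26917 family 0 and 25 (median -2.35). In the 28S family no member was called by edgeR, while unadjusted p-values under 0.05 stood at 2 higher and 1 lower. Its median was -0.03, which becomes 0.84 under listed totals and 0.71 under the upper quartile. The 47 became 221 under listed totals and 185 under the upper quartile. The count of members called higher fell to 10 without methyltransferase non-oxidized replicate 1, to 6 without its replicate 2 and to 13 without methyltransferase oxidized replicate 1.

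**Figure D2:**
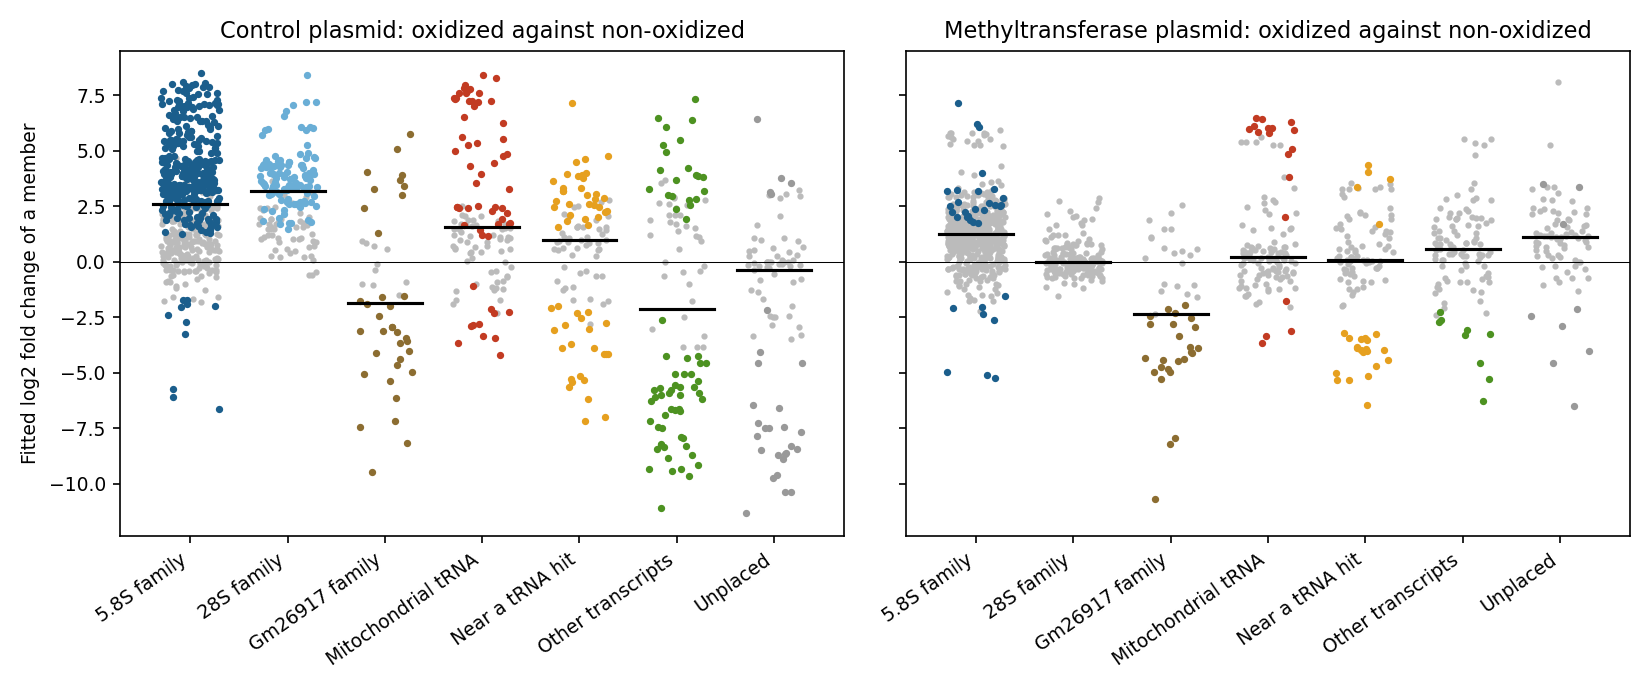
Fitted log2 fold change after oxidation (vertical axis) of each tested member by kind, with the control plasmid (left) and the methyltransferase plasmid (right), where coloured points (darker grey among unplaced members) were called at an adjusted p under 0.05, light grey points were not, and black lines are medians. With the control plasmid the 28S and 5.8S families have medians of 3.18 and 2.61, and with the methyltransferase plasmid -0.03 and 1.25.

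Between the plasmids in oxidized RNA, 42.3% of all tested sequences were called higher with the methyltransferase plasmid and 3.92% lower, with a median log2 difference of 0.82. Members were called higher in 100 cases and lower in 38 of 1169, with a median of -0.42. Of the 100, 53 were near other transcripts and 33 were unplaced, while 15 of the 38 were mitochondrial tRNA members and 13 belonged to the 5.8S family. Scaling by listed totals gave 53 members higher and 973 lower, the upper quartile 327 lower and an equal minimum count 3 higher and 0 lower. The 38 lower calls became 8 without control oxidized replicate 1, 65 without its replicate 2 and 21 without methyltransferase oxidized replicate 1.

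In non-oxidized RNA no sequence of the table was called between the plasmids by edgeR (0% in each direction). With an unadjusted p under 0.05 there were 173 members above and 18 below the control plasmid, and 392 and 466 of all sequences. DESeq2's Wald test called 31 members higher and 1 lower.

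Whether oxidation acted differently with the 2 plasmids was tested as an interaction, the log2 change after oxidation with the methyltransferase plasmid minus that with the control plasmid. Of all sequences 39.6% had a higher and 3% a lower interaction, with a median of 0.96. Of the members 70 had a higher and 117 a lower one, with a median of -1.07. The lower ones comprised 65 of the 172 tested members of the 28S family (median -2.84) and 44 of 537 in the 5.8S family (median -1.33), and the higher ones comprised 42 of 104 near other transcripts (median 3.04). Listed totals gave 19 higher and 837 lower, the upper quartile 305 lower and an equal minimum count 0 higher and 6 lower. The count of 117 became 46 without control non-oxidized replicate 2 and 67 without control oxidized replicate 1.

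Most unchanged members of the 5.8S family form ladders from 2 neighbouring start positions. Of its 551 members, 137 lie unchanged inside the 80-nucleotide seq2290 and hold 70.2% of the family's counts. Of these, 49 start at its base 1 and 46 at base 2, with ends at nearly any base from 30 to 80, and the others start elsewhere. A further 290 members differ from seq2290 by 1 substitution and hold 19.9% of the counts, and 124 differ otherwise.

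The forms ending at base 43, which lead the family by counts, rose after oxidation of control RNA. The 43-nucleotide seq2255 had 230 and 199 counts in the non-oxidized control libraries, 3930 and 1193 in the oxidized control libraries, 712 and 1661 in the non-oxidized methyltransferase libraries and 2744 and 3438 in the oxidized ones. Its log2 change after oxidation was 3.09 ± 0.53 (SE, edgeR adjusted p = 0.00035) with the control plasmid and 1.18 ± 0.50 (adjusted p = 0.16) with the methyltransferase plasmid. The oxidized control libraries lie above the non-oxidized ones in raw counts although their totals are more than 10 times smaller, and the groups do not overlap. The interaction was -1.90 ± 0.70 (adjusted p = 0.046). The same RNA from base 2, seq3863, had 231 and 138, then 3744 and 1122, then 545 and 1185, then 2491 and 2981 counts in the same order of groups. It rose by 3.22 ± 0.55 (adjusted p = 0.00033) with the control plasmid, and its change with the methyltransferase plasmid was 1.46 ± 0.51 (adjusted p = 0.093).

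Other end points of the same RNA went the other way. The full 80-nucleotide seq2290 had 442 and 602 counts in the non-oxidized control, 9 and 15 in oxidized control RNA, 651 and 989 in non-oxidized methyltransferase RNA and 48 and 16 in the oxidized form of it. It fell by 5.74 ± 0.62 on the log2 scale (adjusted p = 9.7e-06) with the control plasmid and by 4.97 ± 0.58 (adjusted p = 0.00016) with the methyltransferase plasmid, and every oxidized library lies below every non-oxidized one. Under listed totals the first change is -1.31 (adjusted p = 0.058). Its base 2 form, seq3896, fell by 6.12 and 5.25.

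Forms ending at base 37 had changes of -1.90 ± 0.45 (seq2246, adjusted p = 0.0029) and -2.42 ± 0.46 (seq3856, adjusted p = 0.00073) in control RNA. Forms ending at base 33 had -1.73 ± 0.52 (seq2238, adjusted p = 0.012) and -1.71 ± 0.43 (seq3848, adjusted p = 0.0045). The directions at these 2 ends depend on the scaling: under listed totals their median changes were 2.26 and 2.72, and under the upper quartile -0.38 and 0.08. The form ending at base 38, seq2249, 1 base longer than seq2246, had 1091 and 870 counts without and 1189 and 563 with oxidation of control RNA (log2 change -0.60 ± 0.43, adjusted p = 0.24). Only the ends 33, 37, 43 and 80 were recomputed under the other scalings. Of these, 43 and 80 kept their directions under each scaling, with median changes of 7.54 and -1.52 under listed totals. Among forms from base 1 the highest change in control RNA was 3.43, for the form ending at base 77, so the changes do not follow length alone.

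**Figure D3:**
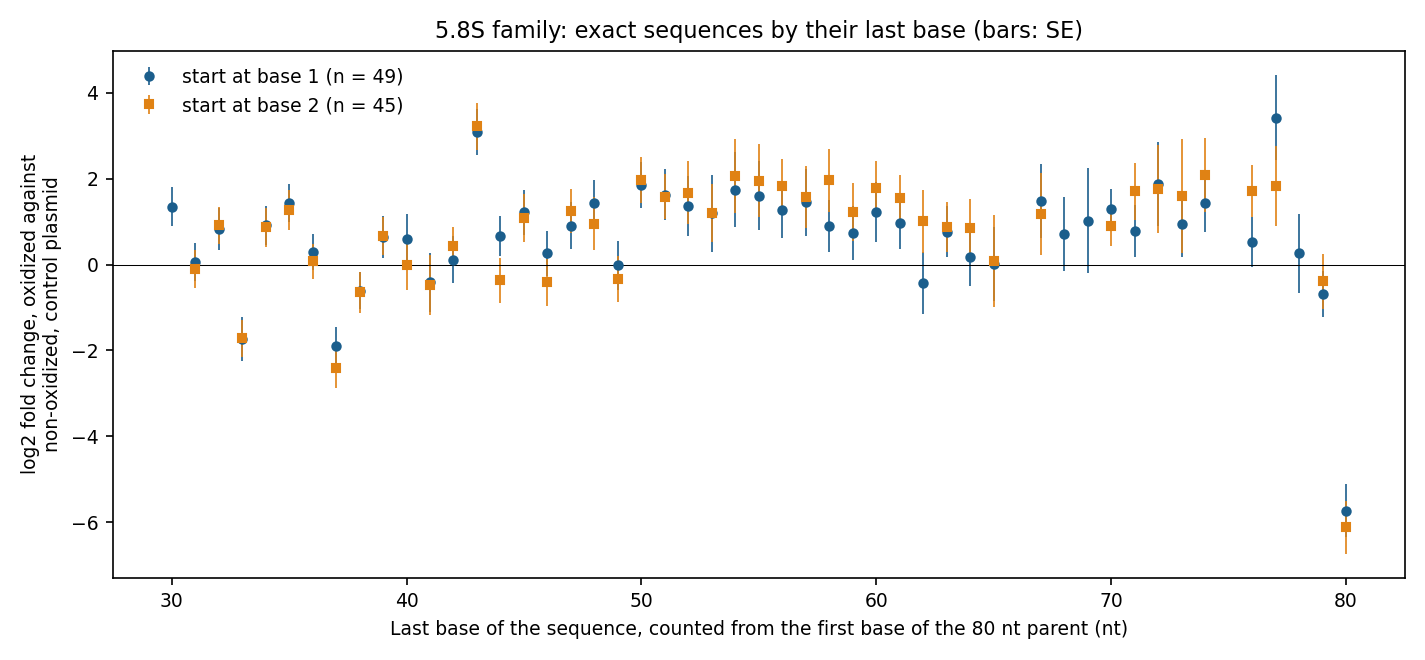
Log2 fold change after oxidation of control RNA (vertical axis, bars SE) against the last base in the 80-nucleotide seq2290 (horizontal axis) for the unchanged 5.8S members that start at base 1 (circles) or base 2 (squares). The forms ending at base 43 stand at 3.09 and 3.22, and those ending at base 80 at -5.74 and -6.12.

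Substituted members of the 5.8S family gathered at base 17, counted from the first base of seq2290. There, 138 members carried A17T, A17G or A17C, 46 of each, and together 79.3% of the counts of all members with 1 substitution. At the position next in order, substituted reads were 0.526% of the reads that cover it. Base 17 substitutions were 6.0% and 5.57% of the reads covering it in the non-oxidized control libraries, 30.4% and 25.5% in the oxidized control libraries, 9.76% and 6.39% in the non-oxidized methyltransferase libraries and 13.4% and 16.7% in the oxidized ones. The oxidized libraries lie above the non-oxidized ones with each plasmid and the oxidized control libraries above all others (exact permutation p = 0.33 for each comparison of groups without overlap, 0.444 adjusted over 36).

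This share is a ratio within a library and does not depend on the scaling. By sequence, 120 of the 138 rose after oxidation of control RNA and 0 fell (median 3.53), against 30 higher and 6 lower of 135 unchanged members (median 0.96). The share of unchanged members that rose is near the 18.4% of all sequences. With the methyltransferase plasmid 19 rose and 0 fell (median 1.36). The interaction was lower for 25 and higher for 0 (median -2.07), and against control RNA in the oxidized libraries 13 were lower and 0 higher (median -1.14).

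The strongest single changes of the family lie among these members. The A17C form of seq2255, seq2335, had 8 and 7 counts in the non-oxidized control, 700 and 163 in oxidized control RNA, 32 and 27 in non-oxidized methyltransferase RNA and 163 and 234 in the oxidized form. It rose by 5.31 ± 0.68 (adjusted p = 3.6e-05) with the control plasmid and by 2.52 ± 0.58 (adjusted p = 0.014) with the methyltransferase plasmid, and no oxidized library overlaps a non-oxidized one. The second of these calls is lost without methyltransferase non-oxidized replicate 2 (2.31) or methyltransferase oxidized replicate 2 (2.20). Among the forms of seq3863, the A17T form seq4002 went from 10 and 6 to 1209 and 242 counts in control RNA and from 47 and 70 to 310 and 450 in methyltransferase RNA. These are log2 changes of 5.95 ± 0.73 (adjusted p = 2.7e-05) and 2.49 ± 0.60 (adjusted p = 0.018). The A17G form seq3967 had 1 and 2 counts against 596 and 126 in control RNA, so its fitted change of 7.29 (adjusted p = 1.3e-05) depends on the prior count, and 22 and 21 against 116 and 139 in methyltransferase RNA (2.33 ± 0.60, adjusted p = 0.024).

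One short A17C form, seq3927 of 30 nucleotides, was lower with the methyltransferase plasmid in oxidized RNA. It had 136 and 116 counts in the oxidized control libraries and 54 and 40 in the oxidized methyltransferase libraries, against 20 and 21, and 19 and 32, without oxidation. The difference between the plasmids in oxidized RNA was -1.35 ± 0.45 (adjusted p = 0.028). This call is lost under 7 of 17 alternatives, among them DESeq2 size factors (-1.10) and leaving out control oxidized replicate 2 (-1.23) or either oxidized methyltransferase library (-1.41 and -0.83).

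Members of the 28S family all share 1 start when unchanged: 47 of them lie inside the 78-nucleotide seq2751 and hold 71.4% of the counts. Its most counted member, seq2729, had 499 and 297 counts in the non-oxidized control, 899 and 1360 in oxidized control RNA, 1865 and 1626 in non-oxidized methyltransferase RNA and 414 and 2629 in the oxidized form. The 2 oxidized methyltransferase libraries lie on either side of the non-oxidized ones, and neither oxidation change passed the test (1.21 ± 0.75 with the control plasmid, adjusted p = 0.17, and -0.34 ± 0.73, adjusted p = 0.81). The 68-nucleotide seq2741 rose by 1.48 ± 0.59 with the control plasmid (adjusted p = 0.046). Of the 47 unchanged members 10 rose and 0 fell with the control plasmid (median 1.45), a share of rises near the 18.4% of all sequences.

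Base 26 was to the 28S family what base 17 was to the 5.8S family. Of 121 members with 1 substitution against seq2751, 56 differed there: 21 C26T, 18 C26A and 17 C26G, with 75.7% of the substituted counts. The share of substituted reads at base 26 was 7.70% and 7.02% in non-oxidized control RNA, 34.3% and 26.6% in oxidized control RNA, 19.5% and 14.6% in non-oxidized methyltransferase RNA and 18.7% and 19.2% in the oxidized form. The oxidized control libraries are the highest and the non-oxidized control libraries the lowest, and with the methyltransferase plasmid the libraries with and without oxidation overlap. By sequence, 53 of the 56 rose after oxidation of control RNA and 0 fell (median 4.03), while with the methyltransferase plasmid 0 were called by edgeR (median -0.13, which becomes 0.71 and 0.62 under listed totals and the upper quartile). The interaction was lower for 49 of the 56 (median -4.24).

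The C26T form seq2796, of 61 nucleotides, had 4 and 1 counts in the non-oxidized control, 126 and 72 in oxidized control RNA, 64 and 37 in non-oxidized methyltransferase RNA and 22 and 83 in the oxidized form. It rose by 4.83 ± 0.91 (adjusted p = 0.00066) with the control plasmid, and its change with the methyltransferase plasmid was -0.13 ± 0.69 (adjusted p = 0.93). The interaction was -4.96 ± 1.15 (adjusted p = 0.004). Low counts without oxidation are seen only in the control plasmid libraries of this sequence, and its fitted value rests on 5 counts there.

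Substitutions away from these 2 bases also took more of the reads in oxidized control RNA. Among unchanged and otherwise substituted reads of the 5.8S family they were 0.782% ± 0.0751 (SD, n = 2) in control RNA without oxidation and 9.77% ± 2.94 with it, and 1.71% ± 0.230 and 5.66% with the methyltransferase plasmid. In the 28S family they were 4.25% ± 0.485 and 17.4% ± 2.17 in control RNA. By sequence, 123 of 150 tested in the 5.8S family rose with the control plasmid and 0 fell (median 4.51), and 51 of 65 in the 28S family (median 3.28).

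**Figure D4:**
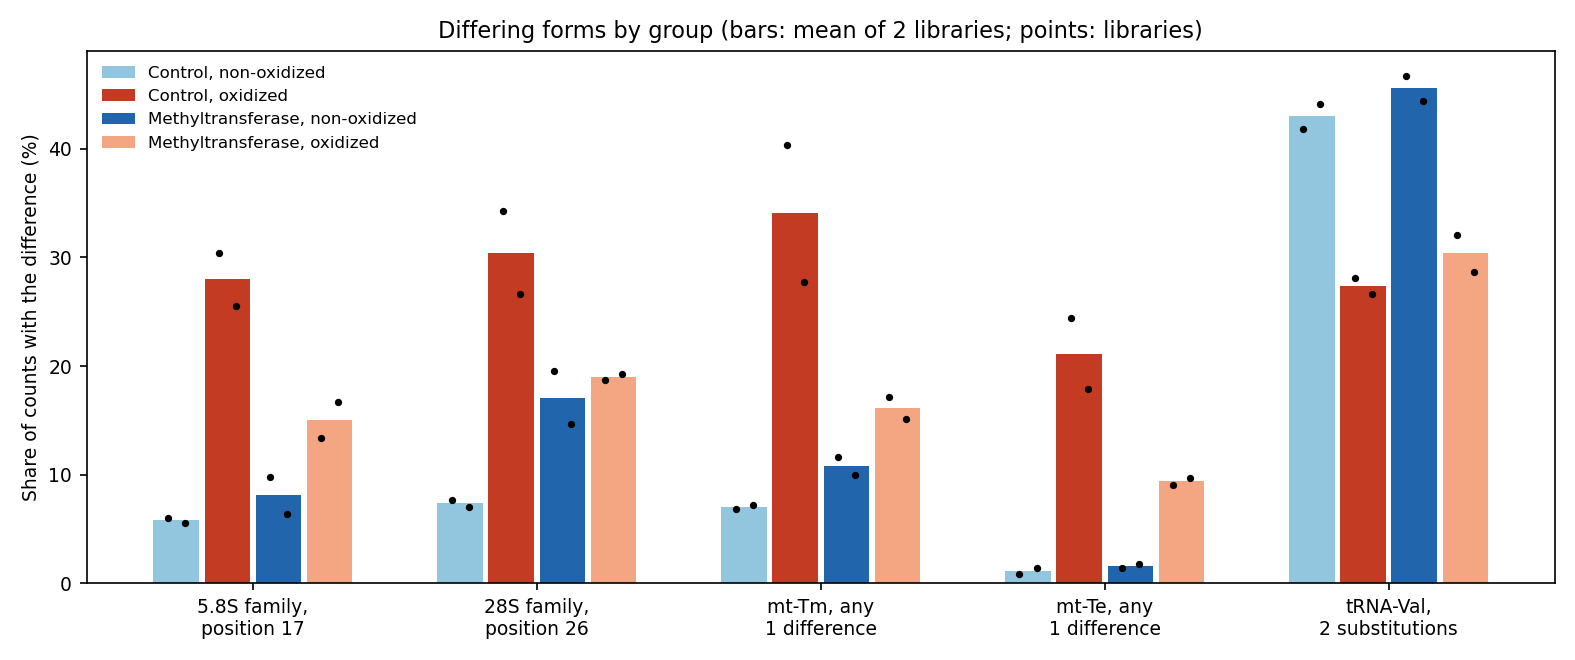
Share of counts with the named difference, in percent from 0, with a bar for the mean of each group and a point for each library, for base 17 of the 5.8S family, base 26 of the 28S family, mt-Tm, mt-Te and the valine tRNA substitutions (pooled over 11 lengths). Both oxidized control libraries are the highest in the first 4 sets, and the oxidized libraries are the lowest in the valine set.

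The leading sequences of the Gm26917 family almost vanished after oxidation. In control RNA 10 of its 46 members rose, a share near the 18.4% of all sequences. The most counted, seq7536, had 3175 and 6710 counts in the non-oxidized control, 7 and 10 in oxidized control RNA, 3569 and 11339 in non-oxidized methyltransferase RNA and 3 and 7 in the oxidized form. The log2 change was -9.49 ± 0.83 (adjusted p = 2e-06) with the control plasmid and -10.70 ± 0.88 (adjusted p = 2.3e-05) with the methyltransferase plasmid, and the groups lie more than 100-fold apart in counts. The form 1 nucleotide shorter, seq7535, had 742 and 2073, 6 and 6, 956 and 3881, and 3 and 15 counts in the same groups, with changes of -8.19 ± 1.00 (adjusted p = 2.5e-05) and -8.20 ± 0.99 (adjusted p = 0.00019). Both fell under each scaling tried, whereas the family's median over its 46 members did not keep its direction, as given above.

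A CCA end was carried by 122 of the 1262 members (9.67%), against 102 of the 381 sequences with a tRNA hit and 30 or more nucleotides (26.8%). Of the 122, 114 match a mitochondrial tRNA within 3 differences once CCA is removed, 48 of them exactly. Of the others, 3 belong to the 28S family, 1 to the Gm26917 family, 1 lies near another transcript, 2 are unplaced and 1 differs by 1 from a sequence with a tRNA hit. None lies at 2 to 4 differences from a sequence with a tRNA hit, and 121 lie at more than 4. The CCA-ended members and the members near a tRNA hit are thus almost disjoint sets.

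As a share of the members' counts, CCA ends made up 12.8% and 13.7% in non-oxidized control RNA, 12% and 10.7% in oxidized control RNA, 7.70% and 7.28% in non-oxidized methyltransferase RNA and 11.1% and 8.12% in the oxidized form. Only the 2 oxidized groups overlapped (exact permutation p = 0.667). The other 3 comparisons gave the smallest p that the exact permutation test allows, 0.33. The difference with oxidation in control RNA, -1.86 percentage points, becomes 1.42 when each distinct sequence is taken once in place of its counts.

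Members came from 11 mitochondrial tRNA genes: 47 from mt-Te, 41 from mt-Tm, 14 from mt-Tg and 9 from mt-Ta, with 4 from mt-Tn, 3 from mt-Tq and 1 from each of 5 others. Mitochondrial tRNAs translate the proteins of the respiratory chain, on which glucose sensing in beta cells depends. The gene mt-Tm, for methionine, lies on the mitochondrial chromosome at 3845 to 3913 on the plus strand (GRCm38), and mt-Te, for glutamate, at 14071 to 14139 on the minus strand.

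The mt-Tm members are whole tRNAs, and seq899, the full tRNA with CCA printed above, was the most counted member in non-oxidized control RNA after seq7536. It had 3711 and 4683 counts in the non-oxidized control, 3988 and 1482 in oxidized control RNA, 2147 and 3962 in non-oxidized methyltransferase RNA and 2786 and 1917 in the oxidized form. Its change after oxidation of control RNA was -1.08 ± 0.42 (adjusted p = 0.039), which becomes 3.34 under listed totals and 0.69 under the upper quartile, and the call is lost without either non-oxidized control library (-1.24 and -0.95) or without control oxidized replicate 2 (-0.71). With the methyltransferase plasmid the change was -0.63 ± 0.41 (adjusted p = 0.37). These libraries give the whole tRNA no direction that holds across scalings.

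The other mt-Tm members took a larger part of the gene's reads after oxidation. Reads of the 38 members that differ from the tRNA plus CCA were 6.80% and 7.16% of mt-Tm member counts in the non-oxidized control, 40.4% and 27.8% in oxidized control RNA, 11.6% and 9.99% in non-oxidized methyltransferase RNA and 17.1% and 15.1% in the oxidized form. The differences lie at 29 positions, with at most 3 members at any of them, and 11 of the 38 are T-to-C changes. Of these members 15 rose and 0 fell with the control plasmid (median 1.76).

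A pair of mt-Tm members differ from seq899 by 1 base at the 3′ end. In seq901 (A72C, hence not ending in CCA) counts were 25 and 43, 242 and 56, 22 and 43, and 33 and 36 in the order of groups used above. It was lower with the methyltransferase plasmid in oxidized RNA, by -1.86 ± 0.60 (adjusted p = 0.023). That call is lost without control oxidized replicate 1 (-0.87) or either oxidized methyltransferase library (-1.67 and -1.69), as well as with the equal minimum count (-1.35) and with only the libraries compared (-1.41). In seq904 (A69C) counts were 55 and 76, 401 and 101, 50 and 141, and 92 and 68. It rose by 1.44 ± 0.58 with oxidation of control RNA (adjusted p = 0.048), a call that 11 of 17 alternatives lose, with values down to 0.49 without control oxidized replicate 1. For both, the high value is in control oxidized replicate 1.

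The mt-Te members, by contrast, are 3′ fragments of many lengths. All 47 together had 602 and 504 counts in the non-oxidized control, 4729 and 3053 in oxidized control RNA, 581 and 829 in non-oxidized methyltransferase RNA and 3701 and 1839 in the oxidized form. Of the 47 tested, 33 rose and 0 fell with the control plasmid (median 4.96) and 14 rose and 0 fell with the methyltransferase plasmid (median 2.66), directions kept under each scaling. The most counted of them is a fragment of 41 nucleotides.

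That fragment, seq6840, runs from base 32 of the tRNA to the CCA end. It had 73 and 57 counts in the non-oxidized control, 2181 and 1509 in oxidized control RNA, 67 and 101 in non-oxidized methyltransferase RNA and 2023 and 864 in the oxidized form. It rose by 4.43 ± 0.47 (adjusted p = 8.8e-06) with the control plasmid and by 3.80 ± 0.46 (adjusted p = 0.0002) with the methyltransferase plasmid. Every oxidized library is at least 8 times above every non-oxidized one in raw counts, and the interaction did not pass the test (-0.63 ± 0.59, adjusted p = 0.46). Fragments that start 1 base later (seq1709) or 1 base earlier (seq10875) rose by 1.91 ± 0.54 (adjusted p = 0.0092) and 1.71 ± 0.44 (adjusted p = 0.0049) with the control plasmid. The 39- and 37-nucleotide forms, seq1160 and seq5468, rose by 1.21 (adjusted p = 0.034) and 1.17 (adjusted p = 0.035), and the other unchanged CCA-ended fragments of 30 to 55 nucleotides did not pass the test.

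Reads of the 28 mt-Te members with a difference were 0.831% and 1.39% of the gene's member counts in the non-oxidized control, 24.4% and 17.9% in oxidized control RNA, 1.38% and 1.81% in non-oxidized methyltransferase RNA and 9.05% and 9.68% in the oxidized form. They spread over 23 positions, at most 3 members at each, and 10 are T-to-C changes. All 28 rose after oxidation of control RNA (median 7.22), and 12 rose and 0 fell with the methyltransferase plasmid. Together the 28 had only 5 and 7 reads in non-oxidized control RNA and 8 and 15 in non-oxidized methyltransferase RNA. The fitted values therefore depend on the prior count. The listing's minimum in oxidized methyltransferase RNA, given above, also bears on these rises, and its part was not tested.

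The 107 members near a tRNA hit differ from a listed tRNA sequence by 1 insertion or deletion (13 members) or by 2, 3 or 4 differences (75, 17 and 2 members). They comprise 70 near valine tRNA sequences, 31 near glutamate, 4 near glycine and 1 each near lysine and cysteine. Fragments of tRNA are among the most frequent small RNAs of cells, and fragments cut near the anticodon are known from stressed cells. The pair printed here shows the leading valine changes, with the member before its nearest listed tRNA sequence. Capitals mark the substituted bases.
seq5863: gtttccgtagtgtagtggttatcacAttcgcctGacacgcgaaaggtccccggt
seq5891: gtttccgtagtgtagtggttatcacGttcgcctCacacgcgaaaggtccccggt

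Among valine members, 48 carried C34G and 23 carried G26A, counted from the first base of the nearest tRNA sequence, and 55 had a substitution at base 17. Base 34 is the first anticodon base, and in valine tRNAs with the anticodon AAC that base is known to be converted to inosine, which sequencing reads as G. Members with exactly G26A and C34G numbered 11. Each was set beside its nearest tRNA sequence, of the same length, and other valine forms were left out. Of the reads of these pairs, the substituted forms made up 41.9% and 44.2% in non-oxidized control RNA and 28.1% and 26.7% in oxidized control RNA. They made up 46.7% and 44.4% in non-oxidized methyltransferase RNA and 32.1% and 28.7% in the oxidized form. With each plasmid the oxidized libraries are lower and do not overlap the others (exact permutation p = 0.33). This share pools 11 lengths whose part in the reads also changed, and it did not hold length by length. With the control plasmid both oxidized libraries were lower at 2 lengths (42 and 43 nucleotides) and higher at 3 (39, 41 and 54 nucleotides), and at 6 lengths they overlapped the others. With the methyltransferase plasmid they were lower at 2, higher at 2 and overlapped at 7.

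The 54-nucleotide seq5863 had 995 and 1449 counts in the non-oxidized control, 16 and 6 in oxidized control RNA, 1607 and 2139 in non-oxidized methyltransferase RNA and 23 and 26 in the oxidized form. It fell by 7.20 ± 0.53 (adjusted p = 6.7e-07) and 6.48 ± 0.51 (adjusted p = 1.6e-05) with the 2 plasmids, and its nearest tRNA sequence, seq5891, fell by 8.07 and 6.26. Between the plasmids in oxidized RNA, seq5863 was higher with the methyltransferase under TMM, by 1.31 ± 0.47 (adjusted p = 0.04). Relative to listed totals it was lower, without overlap. Its counts were 16 and 6 of 438363 and 295094 listed in the oxidized control libraries. They were 23 and 26 of 3100971 and 2446036 in the oxidized methyltransferase libraries. This direction thus depends on the scaling. The 42-nucleotide seq5858, with the same 2 substitutions, had 363 and 990, 23 and 25, 282 and 1006, and 26 and 16 counts in the order of groups used above. It fell by 5.14 ± 0.71 (adjusted p = 6.7e-05) and 5.17 ± 0.71 (adjusted p = 0.00051), the first of which is -0.67 and no longer called under listed totals.

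Not all valine members fell. At 32 nucleotides, 7 of 15 rose after oxidation of control RNA and 0 fell, whereas all 4 of 42 nucleotides fell (median -2.90, but 1.55 under listed totals), as did all 6 of 53 to 55 nucleotides (median -5.39). The 32-nucleotide seq5726 (G12A and G17T) had 18 and 11, 95 and 60, 23 and 51, and 28 and 21 counts. It rose by 2.00 ± 0.55 (adjusted p = 0.0072), a call lost without control non-oxidized replicate 2 (1.65), and was lower with the methyltransferase plasmid in oxidized RNA by -1.55 ± 0.53 (adjusted p = 0.03). Its sister seq5976 (G12T and G17T) had 27 and 16, 88 and 68, 16 and 62, and 20 and 27 counts and did not pass the test (1.47 ± 0.63, adjusted p = 0.059).

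Under TMM, members near glutamate tRNA sequences differed in direction between lengths. Those called higher after oxidation of control RNA were all of 52 nucleotides. Of the 7 members of 30 to 34 nucleotides all fell after oxidation of control RNA (median -4.17, but 0.23 under listed totals) and all fell with the methyltransferase plasmid (median -4.00). Of the 17 members of 52 nucleotides 14 rose and 0 fell with the control plasmid (median 3.33) and 5 rose and 0 fell with the methyltransferase plasmid (median 3.29). Each of the 14 carried 1 substitution beside 1 deletion, so they are close forms of each other and not independent. The 52-nucleotide member with the deletion only, seq7069, held most of the reads of this length. It was not called with the control plasmid (0.99, edgeR adjusted p = 0.063). Under TMM, other lengths in control RNA did not share this rise. The 74-nucleotide member fell (-2.87), as did 1 of the 2 of 53 nucleotides (median -1.66). Those of 51 and 55 nucleotides had -1.93 and -0.40 and did not pass the test. These lengths were not recomputed under the other scalings. The 74-nucleotide member had 244 and 263 counts without and 48 and 41 with oxidation of control RNA. Relative to listed totals both oxidized libraries lie above the non-oxidized ones. The same order holds for the summed counts at 53 nucleotides (65 and 37, then 21 and 42). These directions thus depend on the scaling.

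The 30-nucleotide seq7056 had 1134 and 1094, 74 and 108, 1010 and 2502, and 60 and 92 counts, with changes of -3.91 ± 0.57 (adjusted p = 9.9e-05) and -4.71 ± 0.59 (adjusted p = 0.00027). The 52-nucleotide seq7069 had 391 and 369, 863 and 1020, 169 and 322, and 1231 and 680 counts, with changes of 0.99 ± 0.43 (adjusted p = 0.063) and 1.69 ± 0.44 (adjusted p = 0.026). In raw counts every oxidized library lies below every non-oxidized one for the short form, and above for the long form. Relative to listed totals the long form keeps this order, and the short form keeps it only with the methyltransferase plasmid. In control RNA the oxidized replicate 2 of the short form then lies above both non-oxidized libraries, and oxidized replicate 1 lies between them. The fall of seq7056 in control RNA thus depends on the scaling. Both seq7056 and seq7069 were chosen after their values were seen.

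Among rarer 52-nucleotide members near glutamate tRNA sequences, seq7058 had 8 and 6, 86 and 49, 1 and 1, and 30 and 15 counts. It rose by 2.83 ± 0.57 (adjusted p = 0.001) and 4.06 ± 0.75 (adjusted p = 0.0035) with the 2 plasmids, and was lower with the methyltransferase plasmid in oxidized RNA (-1.48 ± 0.52, adjusted p = 0.033). The member seq7076 had 3 and 3, 120 and 64, 0 and 5, and 45 and 20 counts and rose by 4.47 ± 0.84 (adjusted p = 0.00064) and 3.37 ± 0.86 (adjusted p = 0.023).

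The 94 members at 2 to 4 differences held 6.93% and 8.26% of the members' counts in the non-oxidized control, 2.31% and 3.60% in oxidized control RNA, 6.73% and 6.91% in non-oxidized methyltransferase RNA and 2.56% and 1.61% in the oxidized form. With each plasmid the oxidized libraries are the lower ones (exact permutation p = 0.33), and the 2 oxidized groups overlap.

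**Figure D5:**
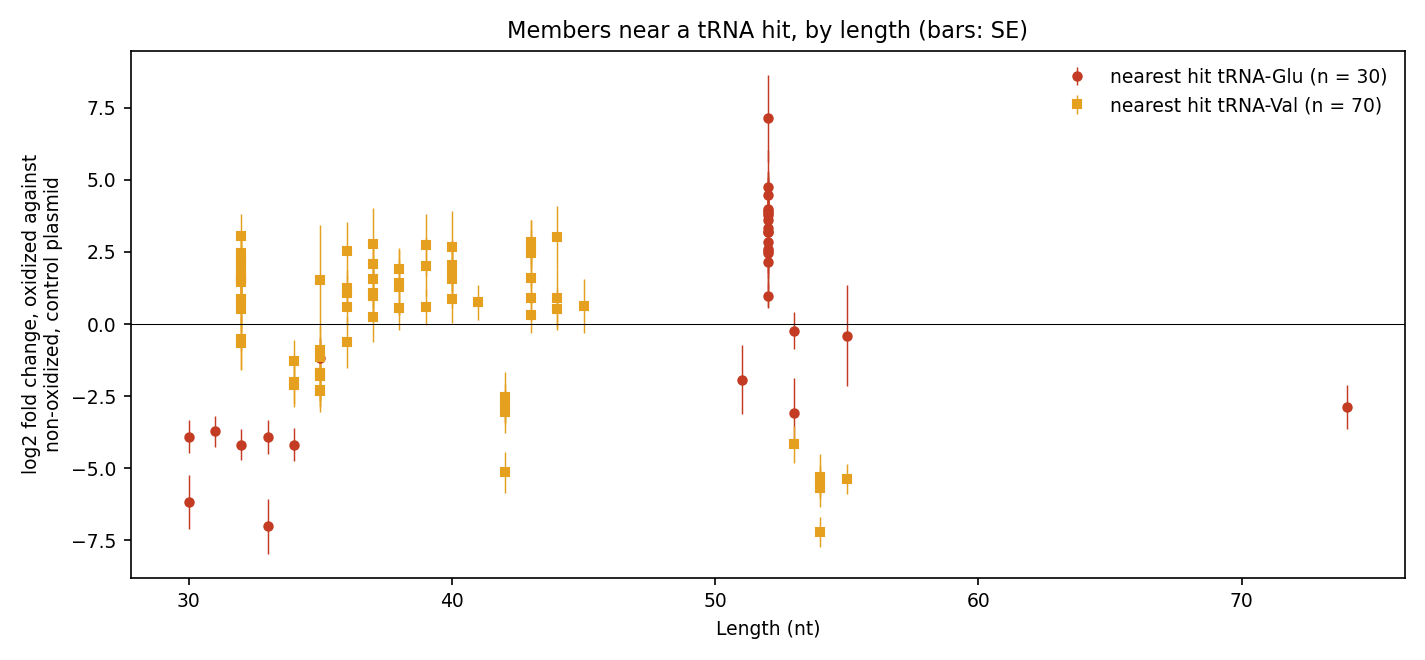
Log2 fold change after oxidation of control RNA (vertical axis, bars SE) against length in nucleotides (horizontal axis) for tested members near glutamate (circles, n = 30) and valine (squares, n = 70) tRNA sequences. Glutamate members of 30 to 34 nucleotides lie below 0 and those of 52 nucleotides above it, and valine members of 53 to 55 nucleotides lie below 0.

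Among the 143 members near other annotated transcripts, 78 match a transcript once a 3′ tail of A only is removed: 60 with 1 A, 12 with 2 and 6 with 3. They come from 20 genes, 20 of the members from snoRNA genes and 56 from retained introns of genes such as Gas5, Snhg1 and Rpl21, and their median length is 73 nucleotides. Box C/D snoRNAs, which guide 2′-O-methylation of ribosomal RNA, are mostly cut from introns of such host genes. Examples are printed with the final A, absent from the transcript, as the capital.
seq9702: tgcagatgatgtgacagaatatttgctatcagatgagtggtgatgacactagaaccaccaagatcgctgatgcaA
seq3145: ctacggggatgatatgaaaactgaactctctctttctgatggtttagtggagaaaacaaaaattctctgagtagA

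The tailed members were nearly absent from oxidized control RNA. Together they had 1601 and 2165 counts in the non-oxidized control, 17 and 5 in oxidized control RNA, 2398 and 3640 in non-oxidized methyltransferase RNA and 1925 and 1060 in the oxidized form, and 72 of the 78 were at 0 in both oxidized control libraries. Of the 50 tested, 43 fell and 0 rose after oxidation of control RNA (median -5.96), against 46.4% lower among all sequences, and 9 fell and 0 rose with the methyltransferase plasmid (median -0.30, which becomes 0.57 and 0.47 under listed totals and the upper quartile). In oxidized RNA 49 of the 50 were higher with the methyltransferase plasmid and 0 lower (median 6.57), against 42.3% of all sequences. The listing's minimum in oxidized methyltransferase RNA, given above, bears on this count, and these medians hold fitted values of sequences at 0 counts, which depend on the prior count.

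Forms without the tail were likewise nearly absent from oxidized control RNA. For 44 of the tailed members the untailed sequence is also listed (32 sequences, all with a genomic match). The untailed sequences had 6255 and 7965, 11 and 4, 8909 and 10849, and 2624 and 1289 counts in the order of groups used above, and the 44 tailed ones 499 and 492, 14 and 0, 887 and 1175, and 1221 and 633. Tailed reads were 7.39% and 5.82% of both forms in non-oxidized control RNA, 9.05% and 9.77% in non-oxidized methyltransferase RNA and 31.8% and 32.9% in its oxidized form. Without overlap, the oxidized methyltransferase libraries are the higher ones (exact permutation p = 0.33). By sequence, 13 of 30 tested untailed forms fell after oxidation of methyltransferase RNA (median -1.48), and 2 of their 29 tested tailed partners did (median 0.28). The listing's minimum in oxidized methyltransferase RNA bears on the share and on this contrast, since the tailed forms had fewer reads without oxidation. Its part was not tested. In oxidized control RNA only 25 and 4 reads of both forms were counted, too few for a share.

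Values of single tailed members follow, where a bound takes each oxidized control library at 3 counts and is given under TMM and then under listed totals. The Snhg1 member seq3145 (gene on chromosome 19, 8723475 to 8726443, plus strand, GRCm38) had 198 and 283 counts in the non-oxidized control, 0 and 0 in oxidized control RNA, 279 and 501 in non-oxidized methyltransferase RNA and 25 and 14 in the oxidized form. It was at least 101-fold lower after oxidation of control RNA under TMM (adjusted p = 2.2e-06) and at least 4.66-fold under listed totals. In oxidized RNA it was at least 6.62-fold higher with the methyltransferase plasmid under TMM (adjusted p = 0.00018), and listed totals give no bound above 1. It fell by 4.58 ± 0.52 with the methyltransferase plasmid (adjusted p = 0.00022), so its oxidized methyltransferase libraries lie between the others.

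The Gm22980 member seq7454 (snoRNA gene on chromosome 4, 117154093 to 117154162, minus strand) had 39 and 31, 0 and 0, 72 and 129, and 173 and 47 counts. Under TMM it was at least 14.8-fold lower after oxidation of control RNA (adjusted p = 0.00013), for which listed totals give no bound above 1. It was at least 36.1-fold higher in oxidized methyltransferase than in oxidized control RNA (adjusted p = 5.4e-05), or 4.42-fold under listed totals. Its change with oxidation of methyltransferase RNA was -0.19 ± 0.57 (adjusted p = 0.88), and those 4 libraries overlap.

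Not every tailed member did so. The Gm23969 member seq9702 (snoRNA gene on chromosome 2, 26911261 to 26911334, plus strand), chosen after its values were seen, had 412 and 723, 3 and 5, 476 and 929, and 17 and 5 counts. It fell by 7.44 ± 0.71 (adjusted p = 4e-06) and 6.26 ± 0.65 (adjusted p = 6.8e-05) with the 2 plasmids, and the difference between the plasmids in oxidized RNA did not pass the test (1.45 ± 0.71, adjusted p = 0.13).

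The other 65 members near annotated transcripts have no such tail, and 35 of them lie near Rny3, a Y RNA, which is a small RNA bound by the Ro60 protein. The 35 had 49 and 39 counts in the non-oxidized control, 651 and 190 in oxidized control RNA, 64 and 122 in non-oxidized methyltransferase RNA and 376 and 193 in the oxidized form. Of 34 tested, 18 rose and 0 fell with the control plasmid (median 2.84), against 18.4% higher among all sequences, and the median with the methyltransferase plasmid was 1.72.

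The 120 unplaced members match no reference within 3 differences, and their sequences are not shown. Of 83 tested, 33 were higher with the methyltransferase plasmid in oxidized RNA and 0 lower, a share near the 42.3% of all sequences. The 38-nucleotide seq3768 had 87 and 102, 0 and 0, 51 and 85, and 40 and 73 counts. Under TMM it was at least 39.8-fold lower after oxidation of control RNA (adjusted p = 1.5e-05) and at least 20.4-fold higher in oxidized methyltransferase than in oxidized control RNA (adjusted p = 5.9e-05), or 1.85-fold and 2.52-fold under listed totals. The 30-nucleotide seq7086 had 166 and 126, 0 and 0, 77 and 38, and 39 and 18 counts, with bounds of 61.8-fold (adjusted p = 1.1e-05) and 9.58-fold (adjusted p = 0.00024) under TMM, and of 2.92-fold and 1.17-fold under listed totals.

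The 76-nucleotide seq9698 had 182 and 396, 0 and 0, 423 and 712, and 11 and 4 counts, with bounds of 121-fold (adjusted p = 4.2e-06) and 2.49-fold (adjusted p = 0.0033) under TMM. Under listed totals the first is 5.49-fold and the second gives no bound above 1. With the methyltransferase plasmid it fell by 6.49 ± 0.66 after oxidation (adjusted p = 8.9e-05), while seq3768 and seq7086 did not pass the test (-0.46, adjusted p = 0.63, and -1.33, adjusted p = 0.17). All 3 are at 0 in both oxidized control libraries and present in the other 6 libraries.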

How the data were processed

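Small RNA of 8 libraries was counted. The deposited table gives read counts per distinct sequence, the hit and the number of genomic matches, per the file headers. The aligner, genome build, trimming, use of molecular identifiers and counting tool are not given in the sources used here. Its 12608 lines were merged to 11568 distinct sequences, and 16 other per-sample columns were not used. Members and lists were chosen with earlier results of these data known. Differences to sequences with a tRNA hit were counted with edlib, and transcripts were searched with BLAST+ 2.17.0 and edlib in GENCODE M21 (GRCm38). The model was edgeR 4.0.16 under R 4.3.3 (TMM, filterByExpr, quasi-likelihood test, 4 groups, Benjamini-Hochberg over 9851 sequences). Alternatives used DESeq2 1.42.0 and limma 3.58.1. For shares, the test was an exact two-sided permutation. With all libraries of a group at 0, a fold is a bound with each of them at 3 counts.

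Named members are the 2 most abundant of each group, the 2 highest and 2 lowest of each contrast among called members whose counts average 50 or more without overlap (not asked of the interaction), the 6 most abundant at 2 to 4 differences from a tRNA sequence and the 3 most abundant with a CCA end. Other members given by identifier, such as seq2290, seq2246 and seq1709, fall outside this rule, and no rule fixed beforehand chose them. Sequences were to be printed only within 4 differences of a tRNA-hit sequence or where found exactly in a mouse reference. The leaders of the 5.8S, 28S and Gm26917 families are printed beyond that rule, a choice made after the data were seen. The comparison of members near glutamate tRNA sequences with those sequences is not reported here. On simulated counts for oxidation with the control plasmid, 200 of 9851 sequences were changed 8-fold, 178 were tested and 122 (68.5%) were called, with 8 unchanged sequences called.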

Additional observations from a re-analysis of the deposited data

Results flagged for a closer look

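By edgeR's test of the interaction, oxidation changed members to a different extent with the 2 plasmids for 70 members with a higher and 117 with a lower value, against 39.6% and 3% of all sequences tested. The interaction is the log2 change with the methyltransferase plasmid minus that with the control plasmid. Among named members of the 5.8S and 28S families the called interactions were negative. It was -1.90 for seq2255, -2.79 for its A17C form seq2335, -3.46 for seq4002 and -4.96 for seq3967 (both from base 2 of the 5.8S family), and -4.96 for the C26T form seq2796 of the 28S family. Other 5.8S forms did not pass the test. They had 0.76 (seq2290), 0.87 (seq3896), 0.37 (seq2246), 0.07 (seq3856), -0.36 (seq2238) and -0.33 (seq3848). Under listed totals these lay between -3.87 and -2.66. For the 32-nucleotide valine members it was -2.84 in seq5726 and -2.39 in seq5976 (adjusted p = 0.05).

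It was positive for members at 0 in both oxidized control libraries: 6.51 for the Snhg1 member seq3145, 8.14 for the Gm22980 member seq7454, and 9.29, 9.05 and 4.86 for the unplaced seq3768, seq7086 and seq9698. These 5 fitted values depend on the prior count. The listing's minimum in oxidized methyltransferase RNA bears on them, and its part was not tested.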

How the results depend on the processing

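Of 280 recomputed main results under other settings, 240 were labelled the same. For a share this means the same direction, and for a number of called members a value within a set factor of the main one. Of 462 recomputed results for named members, 426 kept their direction and side of the threshold. Listed totals gave 53 members higher and 973 lower between the plasmids in oxidized RNA, 1014 higher and 40 lower for oxidation of control RNA, 221 higher for oxidation of methyltransferase RNA, and 19 higher and 837 lower interactions. The upper quartile gave 327 lower, 869 higher, 185 higher and 305 lower for the same 4 contrasts. DESeq2 size factors gave 10 lower between the plasmids in oxidized RNA. DESeq2's Wald test gave 5 lower there, 31 higher and 1 lower in non-oxidized RNA, 342 higher for oxidation of control RNA and 67 lower interactions, and limma-voom gave 80 lower in oxidized RNA. An equal minimum count in the groups compared, which tests fewer sequences, gave 3 higher and 0 lower between the plasmids in oxidized RNA, 68 higher and 54 lower for oxidation of control RNA, and 0 higher and 6 lower interactions. With no filter 165 were higher in oxidized RNA, with only the libraries compared 44 higher and 4 lower, and with members of 40 or more nucleotides 19 lower. Beyond the alternatives' own construction, the cause was not tested.

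Reversed values were the CCA share for oxidation of control RNA with each sequence once (1.42 percentage points) and seq899 (3.34 under listed totals, 0.69 under the upper quartile). Without 1 library at a time, lower calls between the plasmids in oxidized RNA ranged from 8 to 65, higher calls for oxidation from 329 to 536 with the control plasmid and from 6 to 50 with the methyltransferase plasmid, and lower interactions from 46 to 145. The replicate block gave 97 higher and 58 lower members between the plasmids in oxidized RNA (main 100 and 38), 535 and 143 for oxidation of control RNA, 59 and 75 for oxidation of methyltransferase RNA, and 67 and 138 interactions. Same-numbered libraries of 2 groups had deviations correlated between -0.0209 and 0.424, so the numbers do not pair all groups. Depth limits the oxidized control libraries most: with 295094 and 438363 listed counts, levels of members at 0 in both could not be ranked.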
